A study of Rattus norvegicus with 6 samples.

Results

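The receptors for extracellular purines described here are 9 of the 4741 rat genes on the array, P2ry1, P2ry2, P2ry6, P2rx1, P2rx4, Adora1, Adora2a, Adora2b and Adora3. They were measured by 11 of the 8799 probe sets of an Affymetrix rat genome array, found by the single gene symbol that the platform annotation gives each probe set. The genes were chosen by receptor family with the runner against non-runner intensities of these same arrays already known, P2ry6 being among the genes with the smallest p. The differences between groups are therefore given as a description of these arrays. The fit over all probe sets included the brighter members, and its calls for them are printed as counts that support nothing.

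The tissue was aorta of spontaneously hypertensive rats (SHR), an inbred strain with high blood pressure, which both groups share. Runners were SHR given a running wheel for 5 weeks of voluntary exercise, and non-runners were SHR that did not run. Each array was hybridised with RNA pooled from 3 aortae, and there were 3 arrays per group, called A, B and C. The labels give no age or sex and do not say how animals were assigned to pools, so the spread between arrays is that between pools and may be partly technical.

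Cells release ATP and UTP when stretched, sheared or damaged, and sympathetic nerves release ATP with noradrenaline. P2X receptors are ATP-gated cation channels, and P2Y receptors are G protein-coupled receptors for ATP, ADP, UTP or UDP. In arteries, P2X channels and UTP- or UDP-activated P2Y receptors on smooth muscle contract the vessel, whereas P2Y receptors on endothelium relax it through nitric oxide. Ectoenzymes break the nucleotides down to adenosine, which acts on its own G protein-coupled receptors. Of these, Adora2a and Adora2b raise cyclic AMP and dilate vessels, while Adora1 and Adora3 lower it.

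Smooth muscle markers were compared with the tissue label. The 8 on the array of 11 listed were all above the control level on all 6 arrays. They do not set aorta apart from other tissue that holds smooth muscle. The control level, an intensity of 40.8, is the 95th percentile of 19 control probe sets that have no target in the sample. On each array 42.5% to 44.6% of probe sets other than controls lay above it. Non-runner B stood apart in RNA quality, with a beta-actin 3'/5' intensity ratio of 2.14, against 1.22 to 1.43 in runners and 1.28 and 1.67 in the other non-runners. In pooled tissue, fewer cells of a type and less RNA per cell cannot be told apart.

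Of the members above the control level on any array, only P2ry6 had groups that did not overlap, a separation known when the genes were chosen. Its intensity was higher in each pool of runners than in any pool of non-runners. Such a separation, in either direction, was found for 14.9% of the 5244 probe sets bright enough to be fitted. P2rx1, P2rx4, P2ry2 and 1 probe set of Adora3 were above the control level on all 6 arrays, with overlapping groups. Adora2a lay around that level. P2ry1, Adora1, Adora2b and the other Adora3 probe sets lay below it on every array.

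Promoters are shown for P2ry2 and P2rx1, members above the control level on all 6 arrays whose start regions differ in base composition. The windows run from 250 bases before to 50 bases after the RefSeq gene start, on the build GRCr8, and 7 of the 9 genes had one in the table. Capitals mark GC boxes, GGGCGG on either strand, the element bound by Sp1-type factors.
P2ry2, chr1:164779439-164779738, minus strand: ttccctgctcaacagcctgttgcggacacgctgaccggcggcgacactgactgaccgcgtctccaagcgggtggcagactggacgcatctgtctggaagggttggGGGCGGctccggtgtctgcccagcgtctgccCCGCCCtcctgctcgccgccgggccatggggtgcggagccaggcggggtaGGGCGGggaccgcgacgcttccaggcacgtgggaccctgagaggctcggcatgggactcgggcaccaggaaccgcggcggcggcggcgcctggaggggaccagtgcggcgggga
P2rx1, chr10:58116857-58117156, plus strand: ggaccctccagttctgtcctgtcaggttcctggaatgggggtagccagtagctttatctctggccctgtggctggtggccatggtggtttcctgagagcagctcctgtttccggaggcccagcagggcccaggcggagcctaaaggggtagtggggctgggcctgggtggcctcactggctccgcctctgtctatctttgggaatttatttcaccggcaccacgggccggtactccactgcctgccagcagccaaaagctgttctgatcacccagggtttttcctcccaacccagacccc
The P2ry2 window held 3 GC boxes and 33 CpG dinucleotides, and the P2rx1 window 0 and 6. Over all 33469 promoter windows, 33.1% held a GC box and the median number of CpGs was 7. GC content was 73.0% for P2ry2 and 61.0% for P2rx1, against a median of 51.7%. E-boxes, CANNTG on either strand, numbered 2 for P2ry2 and 0 for P2rx1, and 72.1% of windows held at least 1. The CArG box of smooth muscle promoters was matched in 0 of the 7 member windows and in 1.64% of all windows. These are matches of letters and say nothing of whether a factor binds.

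**Figure D1:**
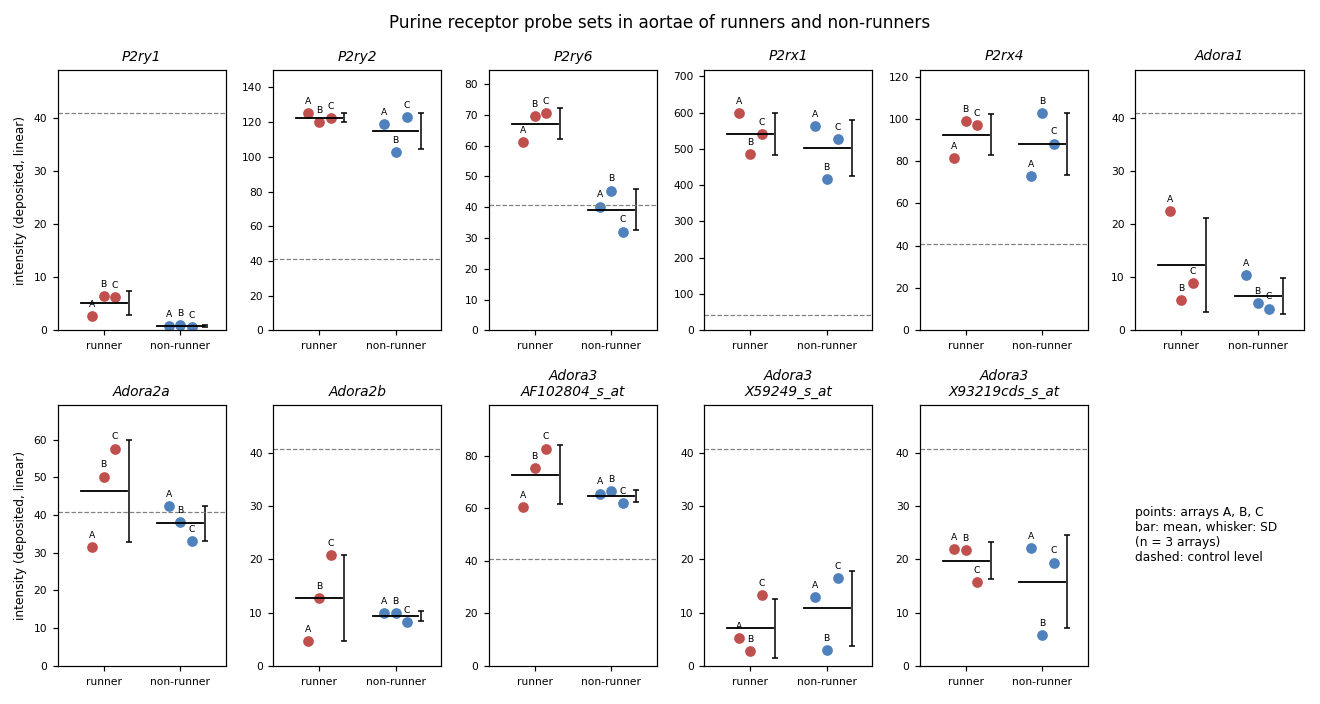
Deposited intensity (linear axis, starting at 0) of the 11 purine receptor probe sets in runners (left, red) and non-runners (right, blue), 1 point per array, with mean and SD (n = 3 arrays). The dashed line is the control level of 40.8. P2ry6 runner points lie at 61.3 to 70.6 and non-runner points at 32.1 to 45.4, while the groups overlap in P2ry2, P2rx1, P2rx4, Adora2a and Adora3.

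Among the P2Y receptors, P2ry6 encodes the receptor for UDP, found on smooth muscle and macrophages. Its intensity was 61.3, 69.6 and 70.6 on runner arrays A, B and C, against 40.2, 45.4 and 32.1 on non-runner arrays A, B and C. All runner arrays and only non-runner B were above the control level, and non-runner A lay just under it. Runners averaged 67.2 ± 5.1 and non-runners 39.2 ± 6.7 (SD over 3 arrays, as for each mean intensity that follows), a difference of 0.74 ± 0.16 (log2, SE), or 1.67-fold on the normalized scale. The difference stayed between 0.63 and 0.85 when any 1 array was left out, and was 0.85 without non-runner B.

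P2ry2 encodes a receptor for ATP and UTP of endothelium and smooth muscle. It measured 125.2, 120.0 and 122.2 in runners A, B and C, and 118.9, 102.9 and 122.8 in non-runners A, B and C. The groups overlapped, and non-runner B was the lowest array. The difference was 0.10 ± 0.15 (log2, SE) with all arrays and 0.03 without non-runner B. On GRCr8, P2ry2 and P2ry6 are adjacent protein-coding genes on chromosome 1, so neighbouring genes of 1 receptor family had log2 differences of 0.10 and 0.74. The difference between these values was not tested.

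P2ry1 encodes an ADP receptor known for its part in platelet activation and endothelium-dependent relaxation. It measured 2.6, 6.5 and 6.3 in runners A, B and C, and 0.8, 1.0 and 0.6 in non-runners A, B and C. The groups did not overlap, but every value was far below the control level, so no fold is given and neither group is established as signal. It was left out of the fit with the dimmest 40% of probe sets.

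The P2X channels P2rx1 and P2rx4 were above the control level on all arrays, and their groups overlapped. P2rx1 encodes the main ATP-gated channel of arterial smooth muscle, which carries the fast response to nerve-released ATP, and is also found on platelets. Its intensity was 598.4, 484.7 and 540.5 in runners A, B and C, against 563.5, 417.5 and 525.8 in non-runners A, B and C. The B array was the lowest of each group, and non-runner B was the lowest of all. Runners averaged 541 ± 56.9 and non-runners 502 ± 75.8, a log2 difference of 0.13 ± 0.17 (SE). Without non-runner B it was 0.02.

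P2rx4 encodes an ATP-gated channel of endothelium and macrophages that takes part in flow-dependent dilation. It measured 81.6, 98.9 and 97.1 in runners A, B and C, and 73.1, 102.7 and 88.3 in non-runners A, B and C. The highest and the lowest array were both non-runners, so the runner values lay inside the non-runner range. The log2 difference was 0.09 ± 0.18 (SE) with all arrays, 0.19 without non-runner B and -0.05 without non-runner A.

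Adora2a, the adenosine receptor best known for dilating vessels through cyclic AMP, measured 31.4, 50.2 and 57.6 in runners A, B and C. In non-runners A, B and C it measured 42.3, 38.1 and 33.1. Runners B and C were higher than every non-runner array, and runner A was the lowest array of all. Only 2 of 3 runners and 1 of 3 non-runners were above the control level. The log2 difference was 0.22 ± 0.21 (SE), and leaving out runner A or runner C moved it to 0.43 or 0.09.

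Adora3 encodes the receptor through which adenosine releases mast cell mediators in rodents. Its 3 probe sets carry the one symbol against 2 gene identifiers, of which 1 is in the gene table of GRCr8. AF102804_s_at measured 60.4, 75.3 and 82.7 in runners A, B and C, against 65.6, 66.5 and 62.1 in non-runners A, B and C. As with Adora2a, runner A was the lowest array and runners B and C the highest, and the log2 difference was 0.15 ± 0.15 (SE). The other probe sets, X59249_s_at and X93219cds_s_at, lay below the control level on every array. X59249_s_at averaged 7.07 ± 5.54 in runners and 10.8 ± 6.99 in non-runners, and X93219cds_s_at 19.8 ± 3.5 in runners and 15.8 ± 8.8 in non-runners. The Adora3 probe sets thus disagreed on whether the transcript was above background.

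The remaining adenosine receptors gave no value above the control level. Adora2b, the low-affinity receptor coupled to cyclic AMP, measured 4.6, 12.7 and 20.9 in runners A, B and C, and 9.9, 9.9 and 8.3 in non-runners A, B and C. The groups overlapped, with runner A the lowest and runner C the highest array. Adora1, which slows the heart and lowers cyclic AMP, measured 22.4, 5.7 and 8.9 in runners A, B and C, and 10.4, 5.1 and 4.1 in non-runners A, B and C. Its runner mean of 12.3 ± 8.9 rests largely on runner A.

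Of the 11 probe sets, 6 were bright enough to enter the fit over 5244 probe sets, 1 for each of P2ry2, P2ry6, P2rx1, P2rx4, Adora2a and Adora3. At a limma adjusted p under 0.05, 0 of the 6 were called in either direction, and 0% of all tested probe sets were. At an unadjusted p under 0.05, 1 of the 6 was higher in runners (P2ry6), where 3.83% of all probe sets were, and 0 were lower, where 4.23% were. Groups did not overlap for 1 of the 6, against 14.9% of all tested probe sets. All 6 differences were above 0, from 0.09 to 0.74, where 1469 of 3178 tested genes were above 0. Nothing is read from these counts, since the genes were chosen with this comparison known.

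**Figure D2:**
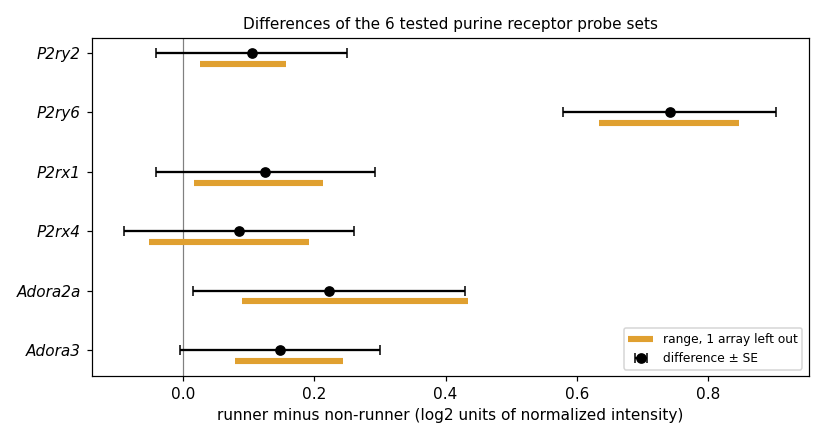
Runner minus non-runner difference (log2 units of normalized intensity) of the 6 tested receptor probe sets, with SE as whiskers, and beneath each the range when any 1 of the 6 arrays is left out. P2ry6 stands at 0.74, with a range of 0.63 to 0.85. The other 5 lie between 0.09 and 0.22, and the range of P2rx4 reaches -0.05.

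Markers of cells that carry these receptors were measured on the same arrays. Over all tested probe sets, 14.9% had groups that did not overlap, the share to set beside each marker without overlap. Macrophage markers, 10 of 17 on the array, summed to an intensity of 1440 to 1877 in runners and 1527 to 1851 in non-runners, and the groups overlapped. Of the 10, 6 were above the control level on all arrays, among them Lyz2 and C1qb, while Csf1r and Itgam lay below it on every array. Cd74, of antigen presentation, averaged 290 ± 52.2 in runners, against 430 ± 90.6 in non-runners, and was the 1 macrophage marker whose groups did not overlap. The part of macrophages in the P2ry6 values was not tested.

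Summed platelet and red cell markers did not overlap between the groups. The 5 measured of 10 summed to 2358 to 4657 in runners and 1615 to 2121 in non-runners, with 5 above the control level on all arrays. Globin transcripts made up most of the sum. Hbb, a beta globin, measured 1472.7, 1445.7 and 2910.5 in runners A, B and C, and 888.7, 1310.7 and 959.4 in non-runners A, B and C. It did not overlap between groups, and runner C was far above the other arrays. Hbb-b1, a near-identical globin whose probe set may share its signal, averaged 793 ± 425 in runners, against 419 ± 54.0 in non-runners, also without overlap. Alas2, of heme synthesis in red cells, averaged 155 ± 49.7 in runners, against 119 ± 4.1 in non-runners, and overlapped. Pf4, a platelet chemokine, measured 180.4, 170.0 and 187.1 in runners A, B and C, and 142.0, 147.2 and 131.1 in non-runners A, B and C. Its groups did not overlap. Itga2b, the platelet integrin, measured 57.1 ± 11.1 in runners, against 55.0 ± 9.5 in non-runners, and overlapped. The part of blood in the values of P2ry6 and P2rx1 was not tested.

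Mast cell markers, 11 of 13 on the array, summed to 227 to 331 in runners and 263 to 315 in non-runners. Tpsb2 and Cma1, mast cell proteases, were above the control level on all arrays, and the other 9, which include Kit, Cpa3 and Ms4a2, on none. Runner A was the lowest array for this sum, as it was for Adora2a, Adora2b and AF102804_s_at of Adora3. It was also the lowest for the macrophage sum (1440) and the nerve and Schwann cell sum (1203), while Adora1 was highest on it (22.4). The part of mast cells in the receptor values was not tested. Endothelial markers, 12 of 15, summed to 868 to 919 in runners and 782 to 1064 in non-runners. Of the 12, 2 were lower in runners without overlap, near the 14.9% without overlap among all tested probe sets. Egfl7, a secreted endothelial protein, measured 37.2, 34.1 and 14.6 in runners A, B and C, and 86.7, 140.1 and 129.7 in non-runners A, B and C. All runners were below the control level, so it was at least 2.73-fold lower in runners (limma adjusted p = 0.229). Flt1, a VEGF receptor, averaged 47.0 ± 9.4 in runners, against 63.6 ± 3.4 in non-runners. Nos3, endothelial nitric oxide synthase, averaged 62.1 ± 10.6 in runners, against 87.9 ± 17.3 in non-runners, and overlapped.

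Smooth muscle markers summed to 16833 to 16952 in runners and 15467 to 19121 in non-runners. Of the 8, 2 were higher in runners without overlap, against 14.9% of all tested probe sets without overlap in either direction. Itga8, an integrin subunit, averaged 405 ± 7.9 in runners, against 275 ± 50.003 in non-runners (log2 difference 0.56 ± 0.18 SE, limma adjusted p = 0.516). Cald1, the actin-binding caldesmon, averaged 489 ± 19.0 in runners, against 416 ± 25.0 in non-runners. The part of endothelium and smooth muscle in the receptor values was not tested.

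Nerve and Schwann cell markers, 13 of 15, likewise did not overlap in their sum. It was 1203 to 1437 in runners and 1628 to 1768 in non-runners. Pmp22, of myelin, made up most of the sum on each array, at 790 ± 22.2 in runners and 1010 ± 142 in non-runners, without overlap. Among runners the sum did not follow Pmp22. Pmp22 was highest on runner A (814.2) and lowest on runner B (770.8), while the sum was lowest on A (1203) and highest on B (1437). Of the 13, 4 were above the control level on all arrays and 4 on none. In runners 12 averaged lower, as did 1709 of 3178 tested genes. Groups did not overlap for 3 markers lower in runners and for 1 higher, against 14.9% of all tested probe sets without overlap in either direction. The lower ones were Pmp22, Th and Snap25. For Snap25 only non-runner A (49.6) was above the control level, and runner B (38.0) lay just under non-runner B (38.2). The higher one was Mbp, also of myelin, at 24.0 ± 5.4 in runners and 13.2 ± 0.6 in non-runners. It lay below the control level on every array. Th, the rate-limiting enzyme of noradrenaline synthesis in sympathetic nerves, averaged 45.1 ± 20.8 in runners, against 82.5 ± 16.6 in non-runners. The Th groups did not overlap, but runners A (36.6) and C (29.8) lay below the control level and only runner B (68.8) above it. Dbh lay below that level on every array and overlapped. Npy averaged 82.4 ± 28.9 in runners and 87.6 ± 29.5 in non-runners, and overlapped. The part of nerve tissue in the receptor values was not tested. Adipocyte markers, 12 of 14, summed to 5032 to 5622 in runners and 4055 to 6064 in non-runners, and the groups overlapped, with Fabp4 higher and Lpl lower in runners without overlap. Of the 12, 9 were above the control level on all arrays, among them Ucp1, of brown fat. Ucp1 averaged 1200 ± 324 in runners and 1251 ± 431 in non-runners. The part of fat tissue in the receptor values was not tested.

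Of the tested probe sets with 1 gene symbol, those nearest to P2ry6 over the 6 arrays were for Dnase1, Grk6 and Pfkfb1. Nearness was the root mean square distance of log2 values, each centred on its own mean over the arrays. It was 0.13 for Dnase1, a secreted nuclease, 0.14 for Grk6, a kinase that desensitises G protein-coupled receptors, and 0.15 for Pfkfb1, which regulates glycolysis. The median over 4327 probe sets was 0.45. Dnase1 measured 40.3, 43.3 and 52.2 in runners A, B and C, against 26.6, 26.7 and 25.2 in non-runners A, B and C. It was at least 1.085-fold higher in runners, all non-runners and runner A being below the control level.

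The Grk6 probe set Y09365cds_s_at averaged 42.2 ± 1.5 in runners, against 28.0 ± 3.2 in non-runners, without overlap. It was at least 1.02-fold higher in runners, with runner B also below the control level. The brighter Grk6 probe set AF040750_at averaged 207 ± 27.5 in runners, against 199 ± 17.6 in non-runners, with a log2 difference of 0.05 ± 0.16 (SE), so the Grk6 probe sets disagreed. Pfkfb1 was below the control level on all 6 arrays. The groups do not overlap in any of these 3 probe sets, as in P2ry6, so the measure largely reflects that separation.

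**Figure D3:**
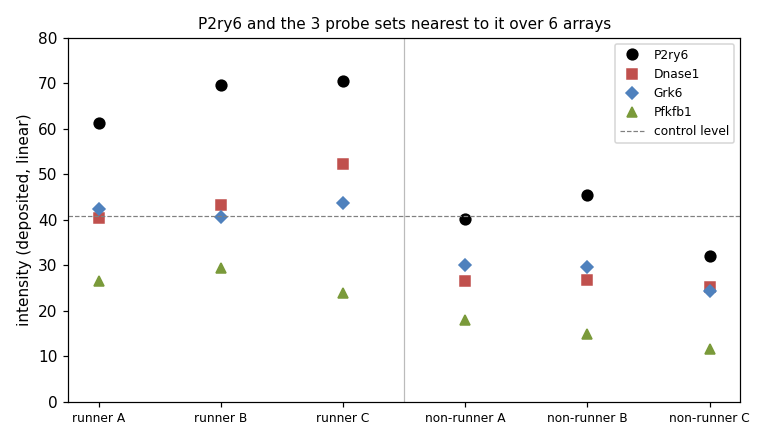
Deposited intensity (linear axis, starting at 0) on each array for P2ry6 and the 3 probe sets nearest to it, runners left and non-runners right, with the control level of 40.8 dashed. In each of the 4, the runner points lie above the non-runner points, and Pfkfb1 stays under the control level throughout.

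Other genes of purine signalling were taken from 7 lists of 117 genes, of which 82 were on the array and 73 were tested by their brightest probe set. At a limma adjusted p under 0.05, 0 of the 73 were called. Without adjustment, a p under 0.05 was found for 2 genes higher in runners, where 2.93% of 3178 tested genes were, and for 5 genes lower, where 4.47% were. The median log2 difference over all tested genes was -0.02.

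Of the other P2 receptors, 6 of 8 on the array were tested, with a median difference of -0.07. P2ry4, a receptor for UTP and in rat also for ATP, measured 15.7, 20.1 and 21.5 in runners A, B and C, against 41.3, 62.0 and 28.8 in non-runners A, B and C. The groups did not overlap, runners lying lower and under the control level on every array, and non-runners A and B above it. P2ry4 was at least 1.03-fold lower in runners (limma adjusted p = 0.32). P2rx2, an ATP-gated channel of nerves, measured 155 ± 38.5 in runners and 174 ± 11.9 in non-runners in its brightest probe set, and overlapped. Its probe set AF020756_s_at averaged 88.9 ± 7.8 in runners, against 109 ± 3.7 in non-runners, without overlap. AF020757_s_at, AF020758_g_at and AF028603_s_at lay below the control level on every array, and U14414_at was above it on non-runner A only. The P2rx2 probe sets thus disagreed on whether the transcript was above background. P2rx5 averaged 36.5 ± 7.9 in runners and 27.7 ± 3.9 in non-runners, and P2ry14, a receptor for UDP-sugars, 20.6 ± 4.3 in runners and 24.5 ± 7.1 in non-runners. Only runner A was above the control level for P2rx5, and 0 arrays were for P2ry14.

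Of the enzymes that break down extracellular nucleotides, 6 of 7 on the array were tested, with a median of -0.14. Entpd1 encodes CD39, which removes phosphates from ATP and ADP on the surface of endothelium and other cells. It measured 164.9, 184.3 and 204.6 in runners A, B and C, against 144.7, 97.0 and 135.2 in non-runners A, B and C. Runners were higher with no overlap, at a log2 difference of 0.57 ± 0.19 (SE) and a limma adjusted p = 0.577. Enpp3, a nucleotide pyrophosphatase, averaged 27.4 ± 1.3 in runners and 39.9 ± 8.2 in non-runners, with only non-runner A above the control level. Entpd2, which converts ATP mainly to ADP, averaged 70.6 ± 19.1 in runners, against 83.5 ± 5.8 in non-runners, and Enpp1, which makes pyrophosphate from ATP, 52.6 ± 9.3 in runners and 44.0 ± 16.4 in non-runners.

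The list for ATP release had a median of 0.14 over 7 genes, which was 0.51 without runner C. Without runner A it was 0.39, over the 6 genes then tested. Without non-runner B it fell to 0.10, also over 6 genes. It was 0.37 over the 4 genes that remained when the dimmest 60% of probe sets were dropped. The remaining settings gave 0.13 to 0.20. Vdac1, a channel of the mitochondrial outer membrane listed for its proposed role in ATP release, measured 90.8, 95.8 and 78.0 in runners A, B and C. In non-runners A, B and C it measured 51.0, 25.8 and 52.3, all lower than the runners and lowest on non-runner B. The log2 difference was 1.02 ± 0.26 (SE, limma adjusted p = 0.377). Gja5, connexin 40 of endothelial gap junctions, averaged 536 ± 35.6 in runners, against 682 ± 69.3 in non-runners, without overlap. Its probe set M76535cds_at averaged 202 ± 14.4 in runners, against 225 ± 36.4 in non-runners, and overlapped. Gja4, connexin 37, averaged 334 ± 24.3 in runners, against 232 ± 102 in non-runners, with 115.3 on non-runner B. Gjb2 was below the control level on every array.

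Adenosine uptake and metabolism had 10 tested genes and a median of -0.03. Xdh, xanthine dehydrogenase at the end of purine breakdown, averaged 101 ± 5.8 in runners, against 160 ± 68.6 in non-runners, where non-runner B reached 238.4. Adk, which phosphorylates adenosine inside cells, measured 94.0 ± 20.9 in runners and 73.6 ± 10.03 in non-runners. The nucleoside transporters Slc29a1, at 233 ± 9.5 in runners and 211 ± 15.2 in non-runners, and Slc28a1, at 63.2 ± 12.2 in runners and 54.6 ± 1.0 in non-runners, overlapped between groups.

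Downstream of the receptors, the Gq and calcium list had a median of -0.05 over 12 tested genes. Itpr3, a calcium release channel opened by inositol trisphosphate, measured 138 ± 8.5 in runners and 195 ± 15.3 in non-runners in its brighter probe set. That is a log2 difference of -0.49 ± 0.14 (SE, limma adjusted p = 0.484), while its other probe set differed by 0.08. Plcb2, a phospholipase that makes inositol trisphosphate, lay below the control level on every array. Plcb3 averaged 31.7 ± 6.7 in runners and 38.4 ± 11.9 in non-runners, and Gna12, a G protein subunit, 114 ± 24.6 in runners and 99.9 ± 4.1 in non-runners.

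The list for Gs, Gi and cyclic AMP signalling had a median of 0.01 over 25 tested genes. Adcy2, an adenylyl cyclase, averaged 46.6 ± 5.7 in runners, against 59.9 ± 4.5 in non-runners, with a log2 difference of -0.37 ± 0.15 (SE, limma adjusted p = 0.594). Gnai2, an inhibitory G protein subunit, averaged 849 ± 31.2 in runners, against 1142 ± 244 in non-runners in its brightest probe set, and its probe sets ran from -0.38 to 0.09 in log2 difference. Prkar1a, a regulatory subunit of protein kinase A, measured 263 ± 5.5 in runners and 208 ± 35.2 in non-runners. Pde4d was below the control level on every array. Receptor kinases and arrestins had a median of 0.04 over 7 tested genes, and the members with the smallest p were Grk3, Grk5, Grk6 and Grk1. Grk3 and Grk1 lay below the control level on every array, and Grk5 averaged 38.6 ± 5.1 in runners and 41.1 ± 8.0 in non-runners.

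**Figure D4:**
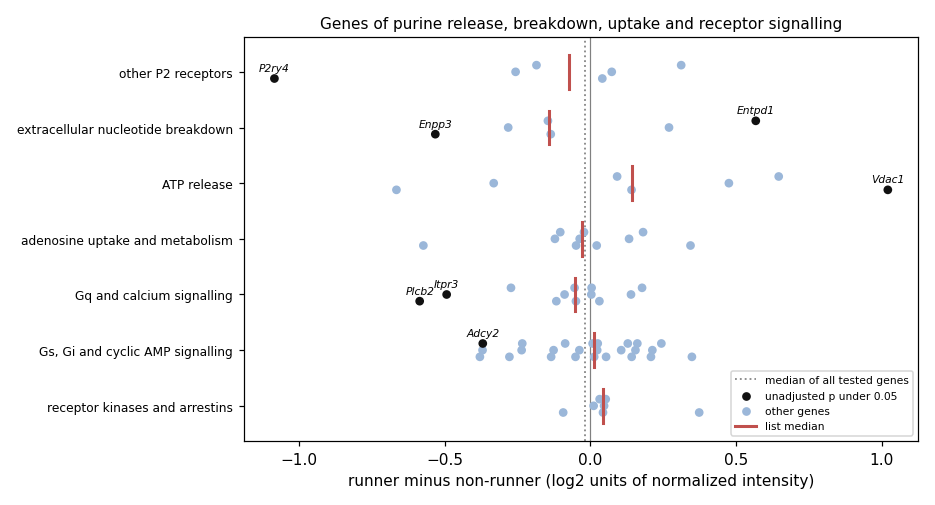
Runner minus non-runner difference (log2 units of normalized intensity) of the tested genes of 7 purine signalling lists, 1 point per gene by its brightest probe set, with list medians as red bars. Named black points have an unadjusted p under 0.05. P2ry4, Enpp3, Plcb2, Itpr3 and Adcy2 lie on the lower side and Entpd1 and Vdac1 on the higher, while list medians run from -0.14 to 0.14.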

How the data were processed

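RNA of 6 pools of aortae was measured on Affymetrix rat genome arrays, 3 of runners and 3 of non-runners, grouped by the sample titles. The deposited table holds linear intensity values per probe set, and the sources used here do not name the software behind them. Trimmed array means lay at 100.14 to 100.15, as a scaling by the authors or their software would give. There is no read depth, and precision is limited by the 3 arrays per group.

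Of the 8799 probe sets, 7017 had 1 symbol, counting a repeated symbol once, 297 several, 1426 none and 59 were controls. Gene identifiers of 6993 matched GRCr8, used for names and neighbours, and 0 symbols changed. Values were analysed as log2(intensity + 2.4), the offset being the 10th percentile of positive values, and quantile normalized. Controls and the dimmest 40% of the rest were left out. The remaining 5244 were fitted with limma 3.58.1 (lmFit, eBayes; two-sided) under R 4.3.3, and p-values were adjusted over all of them by Benjamini-Hochberg. The offset makes differences of dim genes too small. No exact permutation test was used, as its smallest p at this size is 0.1. Where all arrays of 1 group were at or below the control level, a fold is a lower bound against that level.

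Alternatives were other offsets, scalings, filters and variance models, the chip letter as a block, averaging the probe sets per gene, and each array left out. All receptor probe sets, up to 4 genes per list by smallest p, and the 3 probe sets nearest to P2ry6 are named. The receptors, lists and markers were chosen with earlier results of these data known. Arrays of the same letter did not deviate together (correlations of -0.09 to -0.04), so the letters are not taken as pairs. Promoters are from RefSeq. Figures were drawn with matplotlib 3.10.9.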

Additional observations from a re-analysis of the deposited data

How the results depend on the processing

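At an adjusted p under 0.05, limma called 0 probe sets higher and 0 lower in every alternative with 6 arrays, where 310 to 617 had an unadjusted p under 0.05 (357 with the chip letter as a replicate block, 423 without it). With 1 array left out, 0 to 4 were called higher (1 without non-runner A, 4 without non-runner C) and 0 to 1 lower (1 without non-runner A). Those fits had 283 to 550 at an unadjusted p under 0.05, and none of the 9 purine receptor genes was among the calls. Of the 6 tested receptors, P2rx4 alone changed sign with an array left out. Among the dim probe sets, Adora2b and X93219cds_s_at of Adora3 did so as well, and P2ry1 moved most with the offset. P2ry6 lay at 0.65 to 0.76 in the alternatives with 6 arrays. The median of the other P2 receptors was -0.19 with the dimmest 60% left out, where 1 gene was tested. The ATP release median ran from 0.10 to 0.51 as arrays were left out, over 6 or 7 tested genes, highest without runner C. The Gs, Gi and cyclic AMP median ran from -0.058, without non-runner A, to 0.053, without non-runner C. List medians near 0 changed sign under some settings, among them adenosine uptake (0.06) and Gq signalling (0.01) without non-runner B, and receptor kinases with median centring (-0.0048). The causes of these moves were not tested. Most probe sets on each array lay below the control level, and for P2ry1, Adora1 and Adora2b no difference can be read at these signals.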
